A study of Mus musculus with 6 samples.

Results

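The genes described here are 33 genes of glycolysis and of the cellular response to low oxygen, read in FAPs. These fibro/adipogenic progenitors are stromal cells lying between muscle fibres, able to form fibroblasts and fat cells. The genes were taken as a named list of enzymes, transporters, regulators and hypoxia-induced genes. A gene was read from probe sets annotated to that single symbol, and the probe set with the highest mean was used. Of the 33 genes, 30 had such a probe set and all 30 were among the 14953 genes tested, out of 19938 named genes on the array. The other 3 were Gapdh, Gpi1 and Eno1. Every probe set that names Gapdh also names other genes, and Gpi1 and Eno1 were not analysed here.

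The study blocked chosen sites on the transcript of Pdgfra, which encodes a receptor for platelet-derived growth factor, by means of vivo-morpholinos (VMOs). These are antisense oligomers coupled to a group that carries them into cells in the animal. The groups were pA-VMO, a set of oligomers against polyadenylation sites; 5'ss-VMO, an oligomer against a 5' splice site; and a control VMO. All mice were male wild-type C57/Bl6 aged 8 to 12 weeks, and in all groups the tibialis anterior muscles had been injured with 30 µL of 50% glycerol, received the VMO after 3 days and were taken 2 days later. There were 2 arrays per group, each of FAP RNA from a pool of 4 mice, so that an array averages over animals. The oligomers were injected into the muscle and are not restricted to FAPs.

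Glycolysis splits glucose into pyruvate and yields ATP without oxygen. Its enzymes fall into a preparatory phase, which spends ATP to phosphorylate and cleave the sugar, and a pay-off phase, which returns ATP and ends in pyruvate or lactate. Most of these genes, and many genes of blood vessel growth, mitochondrial turnover and collagen hydroxylation, are targets of hypoxia-inducible factor (HIF). The HIF alpha subunit is made continuously and, when oxygen is present, is hydroxylated by prolyl hydroxylases of the Egln family and degraded, so its activity is set mainly at the protein level. Several Egln genes are HIF targets themselves.

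On the log2 scale of the deposited values the 2 arrays of a group correlated at 0.997 with pA-VMO, 0.996 with 5'ss-VMO and 0.996 with control VMO over the genes tested. Replicate arrays differed with an SD over those genes of 0.12 for pA-VMO, 0.13 for 5'ss-VMO and 0.13 for control VMO, so no pair stood apart on the whole. FAP markers were present on every array: Pdgfra lay between 11.24 and 11.37 and the matrix proteoglycan gene Dcn between 12.86 and 13.00. In bulk RNA, fewer cells of a type and less RNA per cell cannot be told apart. Levels of different probe sets were not set against each other.

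Within the glycolysis and hypoxia-response genes, by contrast, 5'ss-VMO replicate 2 differed from its own replicate. It was above 5'ss-VMO replicate 1 for 25 of the 30 genes, where 50.7% of all genes tested were, and it was the highest of the 6 arrays for 20 of the 30, where it was the highest for 18.5% of all genes tested. The median difference between the 5'ss-VMO arrays was 0.21 (log2) over the 30 genes and 0.002 over all genes. A difference was called wide when its size was beyond the 95th percentile over all genes tested, which was 0.26 for this pair of arrays. Of the 30 genes, 11 were wide with replicate 2 higher, against a background of 2.65%, and 0 were wide with replicate 2 lower, against 2.35%. Among the 1% of genes with the largest difference in this direction (149 genes, a background of 0.996%) were 8 of the 30. In the other groups wide differences were few: 0 of the 30 were wide in that direction with pA-VMO (background 2.19%, and 0 the other way, 2.81%) and 0 with control VMO (2.67%), and Egln3, lower on control replicate 2, was the 1 gene wide the other way with control VMO (2.33%). Replicate 2 was above replicate 1 for 15 of 30 genes with pA-VMO (background 49.3%) and for 6 with control VMO (44.5%). The control arrays thus also differed mostly one way, with replicate 2 lower, but by less: the median was -0.08 over the 30 genes and -0.017 over all genes. These are descriptions of single arrays and carry no test.

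**Figure D1:**
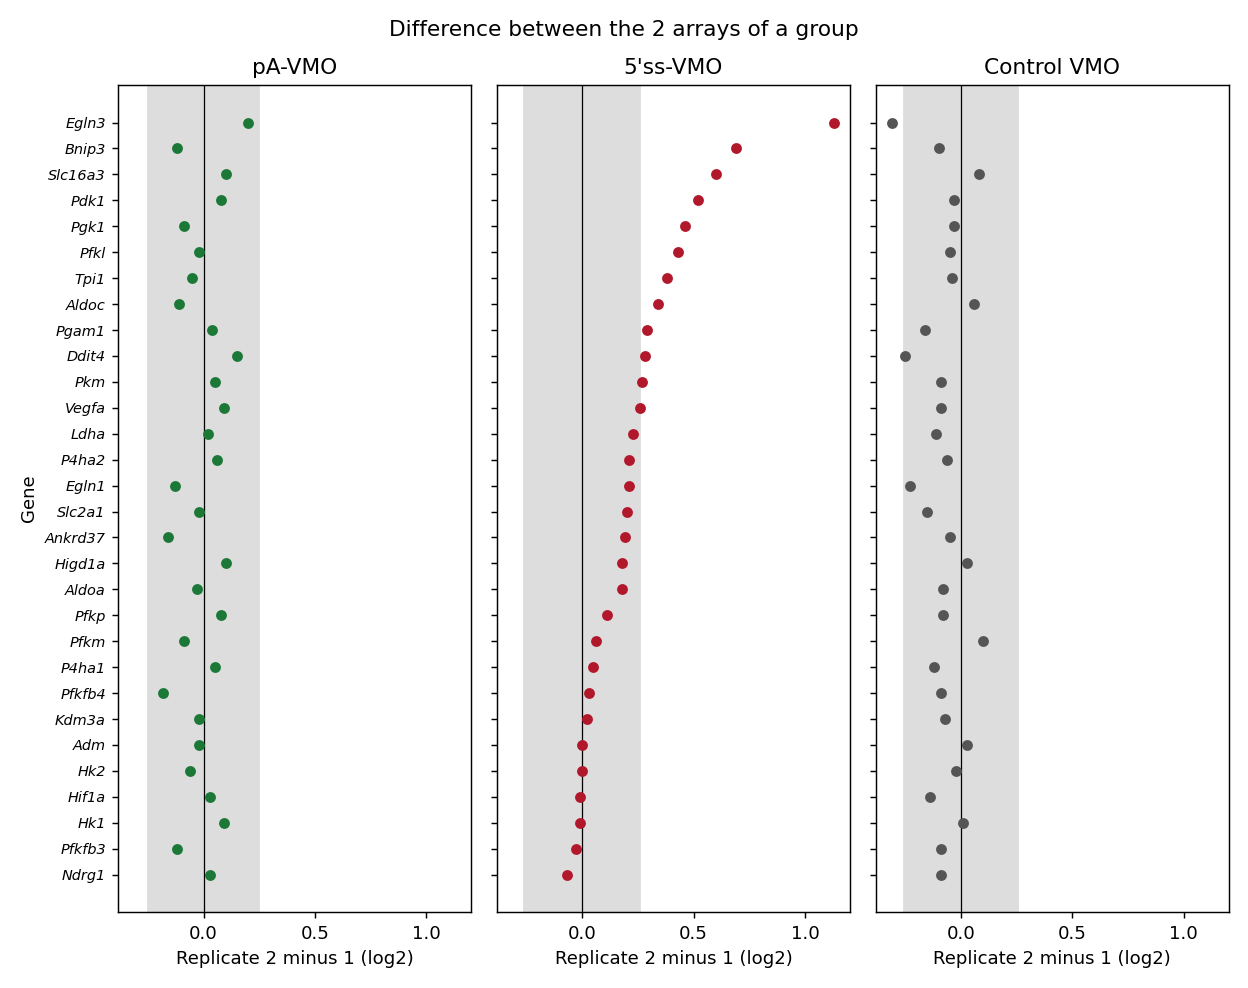
Difference between the 2 arrays of each group (replicate 2 minus replicate 1, log2, horizontal axis) for the 30 genes (vertical axis), with pA-VMO, 5'ss-VMO and control VMO side by side; the grey band holds 95% of all genes tested. With 5'ss-VMO 11 genes lie to the right of the band, led by Egln3 at 1.13, while with pA-VMO all 30 lie within it and with control VMO Egln3 alone lies outside, on the left.

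The member with the widest difference was Egln3, a prolyl hydroxylase that marks HIF for degradation and is itself induced by HIF. Its log2 level was 5.98 and 6.18 on the pA-VMO arrays, 5.89 and 7.02 on the 5'ss-VMO arrays and 6.23 and 5.92 on the control arrays. Replicate 2 of 5'ss-VMO thus lay 1.13 above its replicate (2.19-fold), the largest such difference of all 14953 genes, while the other 5 arrays overlapped between groups. Bnip3, a mitochondrial protein that promotes removal of mitochondria, was at 8.31 and 8.19 in pA-VMO cells, 8.36 and 9.05 in 5'ss-VMO cells and 8.45 and 8.35 in control cells. Its difference between the 5'ss-VMO arrays, 0.69 (1.61-fold), ranked 5 among all genes. A second probe set of Bnip3, with a lower mean, differed by 0.34, so the size and the rank depend on the probe set. Slc16a3, which exports lactate from glycolytic cells, was at 7.80 and 7.90 in pA-VMO cells, 7.86 and 8.46 in 5'ss-VMO cells and 7.72 and 7.80 in control cells, and its difference of 0.60 ranked 12. For these 3 genes 5'ss-VMO replicate 2 was the highest array, while replicate 1 of that group lay among the pA-VMO and control values for Bnip3 and Slc16a3 and was the lowest array for Egln3.

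The sequence just before the transcription start of the 4 genes with the widest differences among those with a single RefSeq promoter entry is shown because HIF binds a short core motif in the promoters of its targets. Each run holds the 250 bases upstream of the start, 5' to 3' on the strand of the gene, from RefSeq on GRCm38.p6. Capitals mark the core motif, searched as ACGTG and GCGTG on both strands, with overlapping matches counted as 1.
Egln3, chr12:54203875-54204124, minus strand: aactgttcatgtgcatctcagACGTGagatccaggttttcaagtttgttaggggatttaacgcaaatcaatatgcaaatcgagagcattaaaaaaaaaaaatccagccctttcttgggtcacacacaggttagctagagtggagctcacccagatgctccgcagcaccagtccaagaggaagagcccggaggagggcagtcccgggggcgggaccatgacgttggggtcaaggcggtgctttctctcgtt
Bnip3, chr7:138909507-138909756, minus strand: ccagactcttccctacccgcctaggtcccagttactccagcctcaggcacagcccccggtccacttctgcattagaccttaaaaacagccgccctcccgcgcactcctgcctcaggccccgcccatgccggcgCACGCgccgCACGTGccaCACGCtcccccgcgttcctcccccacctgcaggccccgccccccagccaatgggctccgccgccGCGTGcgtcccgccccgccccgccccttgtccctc
Slc16a3, chr11:120948817-120949066, plus strand: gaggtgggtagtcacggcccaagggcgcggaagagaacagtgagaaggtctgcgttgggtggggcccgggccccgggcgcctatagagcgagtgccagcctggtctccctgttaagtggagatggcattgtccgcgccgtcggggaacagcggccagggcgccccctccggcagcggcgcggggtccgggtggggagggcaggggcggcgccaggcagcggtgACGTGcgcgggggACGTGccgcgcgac
Pgk1, chrX:106186850-106187099, plus strand: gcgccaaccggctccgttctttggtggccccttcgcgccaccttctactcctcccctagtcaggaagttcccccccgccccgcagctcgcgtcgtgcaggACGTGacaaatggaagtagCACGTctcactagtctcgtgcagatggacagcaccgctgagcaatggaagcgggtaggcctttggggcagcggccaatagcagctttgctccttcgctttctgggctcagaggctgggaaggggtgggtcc
The windows held 1, 4, 2 and 2 matches in the order given. Of the 30 genes 29 had an entry, with 43 promoters in all, and 79.1% of these held the motif, against 38.6% of all 32851 promoters in the table. The members' promoters were also richer in G and C (mean 61.3%) than all promoters (53.2%). The part of base composition in the share with the motif was not tested. The share was 78.6% for promoters of the 11 genes with a wide difference and 79.3% for those of the other members, so the motif did not separate these subsets. Ndrg1 had no entry in the table.

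By role, wide differences between the 5'ss-VMO arrays were found in 3 of 8 preparatory genes, 3 of 4 pay-off genes and 1 of 3 flux regulators, whose medians were 0.14, 0.28 and 0.03. In the pay-off phase all 4 genes were higher on replicate 2, by 0.23 to 0.46. Pgk1, which makes the first ATP of that phase, was at 10.16 and 10.07 in pA-VMO cells, 9.94 and 10.39 in 5'ss-VMO cells and 10.04 and 10.01 in control cells. Pgam1, a phosphoglycerate mutase, and the pyruvate kinase gene Pkm differed by 0.29 and 0.27. Ldha, which turns pyruvate into lactate, differed by 0.23 and was not wide. Of the 8 preparatory genes 3 were wide: Pfkl, the liver-type phosphofructokinase subunit, at 0.43, the triose isomerase gene Tpi1 at 0.38 and the aldolase gene Aldoc at 0.34. Aldoc lay between 5.39 and 5.72, near the filter floor of 5.209, where RMA values are compressed. Pdk1, which keeps pyruvate out of mitochondria by inhibiting pyruvate dehydrogenase, was at 6.60 and 6.67 in pA-VMO cells, 6.70 and 7.23 in 5'ss-VMO cells and 6.86 and 6.83 in control cells. Ddit4, an inhibitor of mTOR complex 1 induced by low oxygen and other stresses, differed by 0.28. The smallest wide difference was that of Pkm (0.271), and the next below the limit was that of Vegfa (0.257).

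Other members did not share the displacement. The hexokinase genes Hk1 and Hk2, which trap glucose in the cell, differed between the 5'ss-VMO arrays by -0.01 and by less than 0.01, though a second probe set of Hk1 differed by 0.15, with replicate 2 the highest array. Hif1a, which encodes the HIF-1 alpha subunit itself, was at 11.22 and 11.21 with 5'ss-VMO, inside the control values of 11.31 and 11.17, with 11.21 and 11.24 on the pA-VMO arrays. The histone demethylase gene Kdm3a and the HIF target Ndrg1, a cytoplasmic stress-response gene, differed by 0.02 and -0.07. The muscle-type phosphofructokinase gene Pfkm differed by 0.06, against 0.43 for Pfkl and 0.11 for the platelet-type Pfkp. The genes of the enzymes that set fructose 2,6-bisphosphate, an activator of phosphofructokinase, differed by -0.03 (Pfkfb3) and 0.03 (Pfkfb4).

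**Figure D2:**
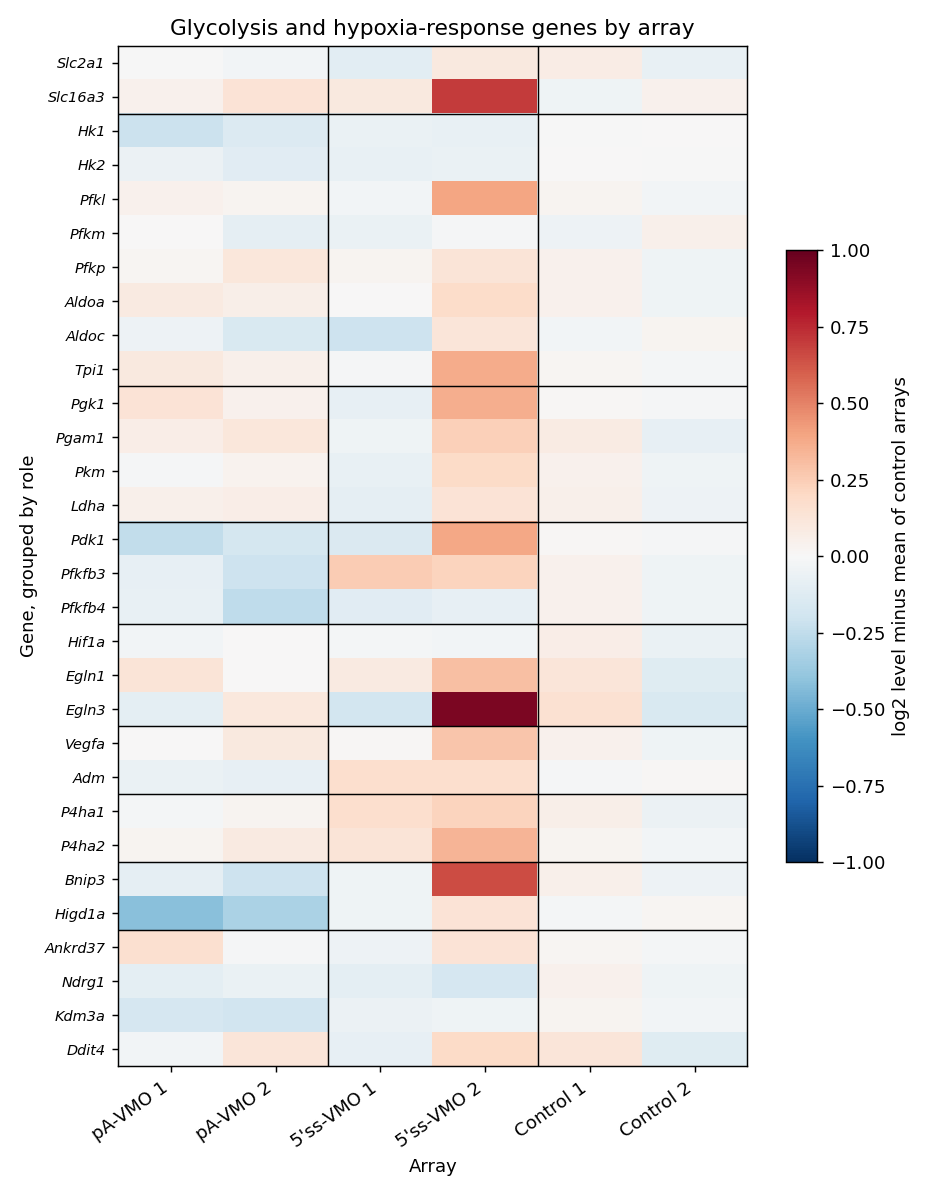
Log2 level of each of the 30 genes (rows, grouped by role) on each array (columns) minus that gene's mean over the control arrays, as colour from -1 to 1. The column of 5'ss-VMO replicate 2 is raised for most genes, strongest for Egln3, Slc16a3 and Bnip3, while Pfkfb3, Adm and P4ha1 are raised in both 5'ss-VMO columns.

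Related lists were read on the same pair of arrays. Over all genes tested, 2.65% were wide with replicate 2 higher and 2.35% with replicate 2 lower. Of 32 other HIF target genes tested, 3 were wide with 5'ss-VMO replicate 2 higher: the glycogen synthase gene Gys1 (0.54), Fam162a (0.47) and the oxidoreductase gene Ero1a (0.31). Stc1 was wide the other way (-0.46), and the median of the list was 0.07. Of 22 other glycolysis genes 2 were wide, the glucose transporter gene Slc2a3 (0.44) and the phosphoglucomutase gene Pgm1 (0.41), with a median of 0.03. Of 24 genes of pyruvate entry and the citrate cycle, 7 of the pentose phosphate pathway and 10 of oxygen sensing, 0 were wide with replicate 2 higher. Cell cycle genes, a list added after the values were seen, had such differences too: 8 of 21 were wide with replicate 2 higher, with a median of 0.19, and Ccna2, the cyclin of S and G2 phase, had 0.50. The mean level of that list was 7.64 and 7.63 on the pA-VMO arrays, 7.48 and 7.69 on the 5'ss-VMO arrays and 7.37 and 7.33 on the control arrays. Markers of FAPs, macrophages, muscle fibres and endothelium had median differences between the 5'ss-VMO arrays of -0.02, 0, -0.02 and 0, and 0 genes of these 4 lists were wide with replicate 2 higher. The satellite cell and myoblast markers had a median of -0.04, and 2 of 12 were wide with replicate 2 lower, the myogenic factor gene Myf5 (-0.57) and the acetylcholine receptor gene Chrna1 (-0.27). The macrophage marker Adgre1 was wide in that direction too (-0.29). The part of proliferation or of other cells in the displacement of the glycolysis genes was not tested.

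**Figure D3:**
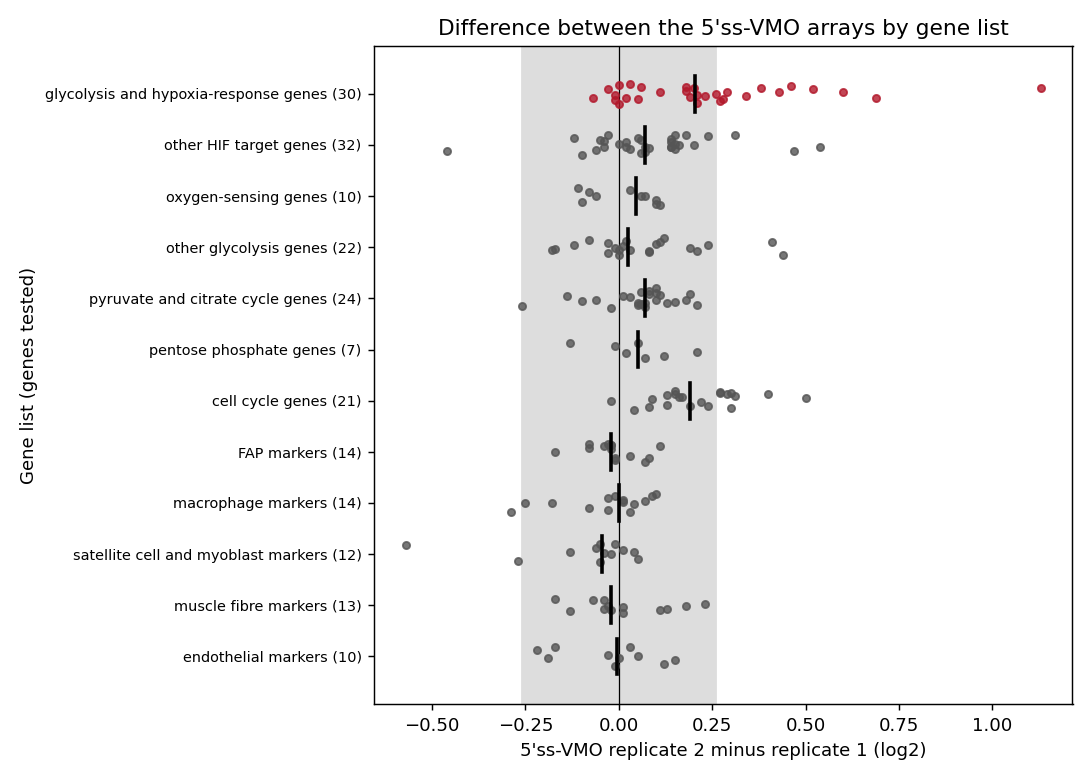
Difference between the 5'ss-VMO arrays (replicate 2 minus replicate 1, log2, horizontal axis) for every tested gene of each list (rows, number of genes in brackets), with black bars at list medians and a grey band holding 95% of all genes tested. The medians are 0.21 for the glycolysis and hypoxia-response genes and 0.19 for cell cycle genes, and those of the marker lists shown lie between -0.04 and 0.

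The comparison of 5'ss-VMO with control VMO asks how the cells responded to the oligomer against the splice site. At an adjusted p under 0.05 (limma, two-sided, Benjamini-Hochberg over all genes) 0 of 30 genes were called, where 0.582% of all genes tested were. With no adjustment 5 of 30 had p under 0.05, all higher with 5'ss-VMO (background 7.72% for that direction), and these 5 were also the genes for which 5'ss-VMO and control did not overlap with 5'ss-VMO higher (background 23.2%). For another 5 the groups did not overlap with 5'ss-VMO lower (background 21.5%). The median difference was 0.088 over the 30 genes and 0.001 over all genes, and 21 of 30 were positive (background 50.4%). The median rested on 1 array. Leaving out 5'ss-VMO replicate 2 gave -0.045, with 9 genes positive, and leaving out the other 5'ss-VMO array gave 0.187, with 23 positive.

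The genes with the largest positive differences depended on the same array. Slc16a3 had a difference of 0.40 ± 0.156 from control (log2 ± SE, 2 arrays in each group, limma adjusted p = 0.31). Without 5'ss-VMO replicate 2 it was 0.10. Egln3 differed by 0.38 ± 0.286 (adjusted p = 0.6) and by -0.19 without that array. Bnip3 differed by 0.31 ± 0.176 (adjusted p = 0.475) and by -0.04 without it. The second probe set of Bnip3 differed from control by 0.20 with both arrays. With 5'ss-VMO replicate 2 as the lone array of its group, these 3 genes lay at 0.70, 0.94 and 0.65. They were also the members with the widest differences between the 5'ss-VMO arrays, so values from replicate 2 alone are no separate support.

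**Figure D4:**
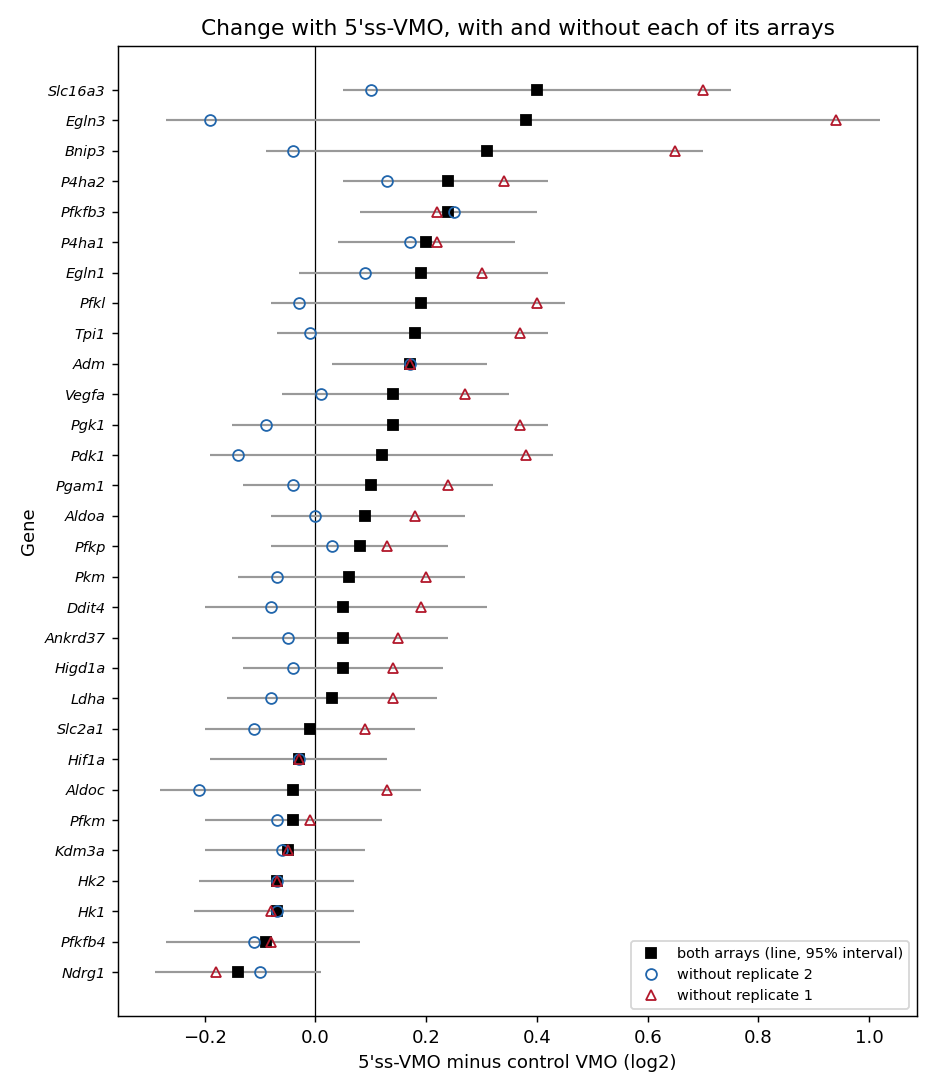
Difference of 5'ss-VMO minus control VMO (log2, horizontal axis) for the 30 genes (vertical axis) with both 5'ss-VMO arrays (squares, with 95% intervals), without replicate 2 (circles) and without replicate 1 (triangles). For Egln3 the 3 values are 0.38, -0.19 and 0.94, while for Pfkfb3 they lie between 0.22 and 0.25.

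Pfkfb3, Adm and P4ha1 had like values on both 5'ss-VMO arrays, and P4ha2 was higher than control on both but with replicate 2 above replicate 1 by 0.21. Pfkfb3, which drives glycolytic flux through fructose 2,6-bisphosphate, was at 8.24 and 8.12 in pA-VMO cells, 8.58 and 8.55 in 5'ss-VMO cells and 8.37 and 8.28 in control cells. Its 3 groups did not overlap. Its difference of 5'ss-VMO from control was 0.24 ± 0.0705 (1.18-fold, adjusted p = 0.207), with 0.25 without replicate 2 and 0.22 without replicate 1 of 5'ss-VMO. Adm, the vessel-dilating peptide adrenomedullin, was at 8.47 and 8.46 in pA-VMO cells, 8.71 and 8.71 in 5'ss-VMO cells and 8.53 and 8.55 in control cells. Its difference from control was 0.17 ± 0.0619 (adjusted p = 0.289) and stayed at 0.17 without either single 5'ss-VMO array. The subunits of collagen prolyl hydroxylase, which stabilises the collagen triple helix, were also higher on both arrays: P4ha1 differed by 0.20 ± 0.0698 (adjusted p = 0.269) and P4ha2 by 0.24 ± 0.0813 (adjusted p = 0.257). P4ha1 lay at 9.95 and 10.00 with 5'ss-VMO, against 9.84 and 9.72 with control VMO, and P4ha2 at 8.91 and 9.12, against 8.81 and 8.75. Without 5'ss-VMO replicate 2 the difference of P4ha1 was 0.17 and that of P4ha2 was 0.13, against 0.22 and 0.34 without replicate 1. The intervals of these 4 differences excluded 0 before adjustment over all genes (Pfkfb3 0.08 to 0.40, Adm 0.03 to 0.31, P4ha1 0.04 to 0.36, P4ha2 0.05 to 0.42). On the negative side lay Ndrg1 at -0.14 (adjusted p = 0.398), Pfkfb4 at -0.09 (adjusted p = 0.641) and Hk1 at -0.07 (adjusted p = 0.658).

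Markers of other cells differed between 5'ss-VMO and control as well. Over all genes tested, 50.4% had a positive difference and 0.582% were called. Of 14 macrophage markers all had a positive difference from control and 2 were called, with a mean log2 level of 6.88 and 6.85 on the 5'ss-VMO arrays and 6.52 and 6.68 on the control arrays. Of 12 satellite cell and myoblast markers 11 were positive and 1 was called, with mean levels of 7.19 and 7.10 against 6.82 and 6.95, and of 10 endothelial markers 7 were positive and 1 was called, with 6.70 and 6.67 against 6.47 and 6.57. The control arrays differed from each other in these lists too. Wide with control replicate 2 higher were 4 macrophage, 2 satellite cell and myoblast and 2 endothelial markers (background 2.67%), with the macrophage gene Lyz2 at 0.62. The called markers were C1qa, C1qc, Chrna1 and Cdh5, and Dpp4 was the 1 of 14 FAP markers called, lower with 5'ss-VMO. Of the 14 FAP markers 4 had a positive difference (median -0.05). Of 21 cell cycle genes 20 had a positive difference (median 0.23) and 0 were called. Of the defining markers, the endothelial Pecam1 was at 6.03 and 6.08 with 5'ss-VMO, against 5.46 and 5.70 with control VMO, the satellite cell factor Pax7 at 6.70 and 6.65, against 6.39 and 6.72, and the leukocyte marker Ptprc at 6.75 and 6.50, against 6.39 and 6.48. Macrophages, myoblasts and endothelial cells also express glycolytic genes. The part of such cells or of proliferation in the differences of Pfkfb3, Adm and the P4ha genes was not tested.

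**Figure D5:**
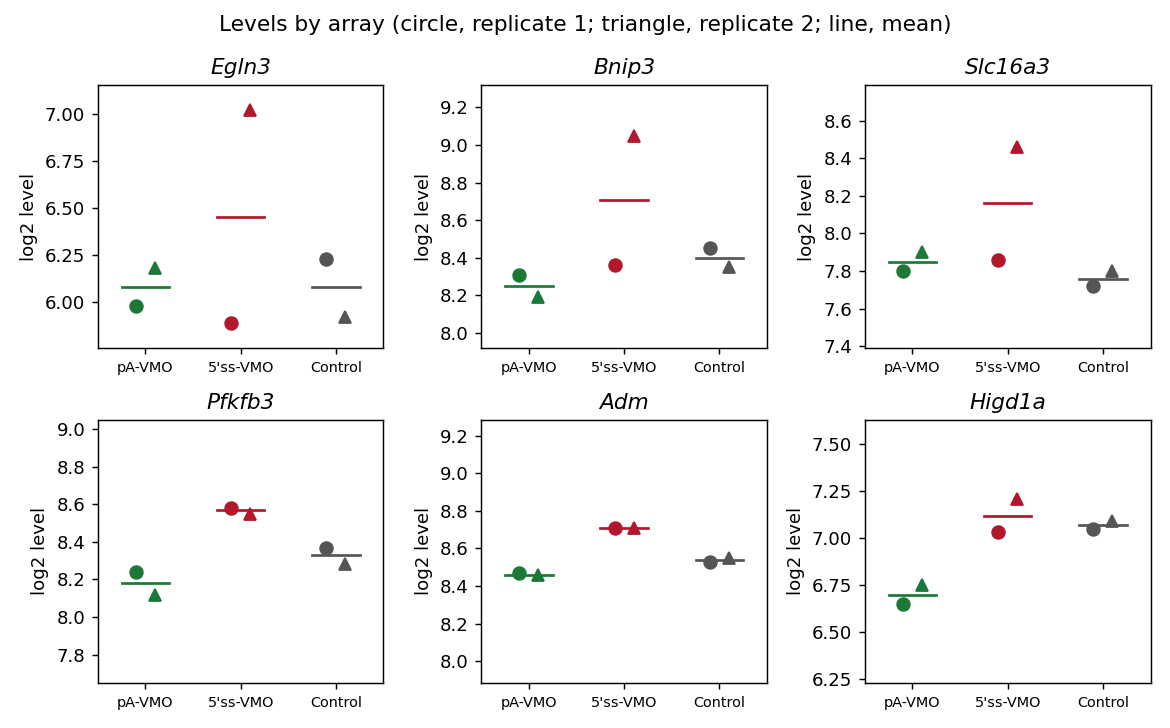
Log2 level (vertical axis, 1.4 units in every panel) of 6 genes on each array, with pA-VMO, 5'ss-VMO and control VMO from left to right, circles for replicate 1, triangles for replicate 2 and lines at the group means. In the upper row 5'ss-VMO replicate 2 stands above the other 5 arrays, at 7.02 for Egln3, and in the lower row the arrays of a group lie together and both pA-VMO arrays are below both control arrays.

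With pA-VMO, meant for the polyadenylation sites of the same transcript, 0 of 30 genes were called against control (background 0.00669%). With no adjustment 3 had p under 0.05, all lower (background 5.23% for that direction): Higd1a, Hk1 and Kdm3a. Both pA-VMO arrays lay below both control arrays for 11 genes (36.7%, background 18.8%) and above them for 4 (13.3%, background 24.1%), and 16 of 30 differences were positive (background 55.2%). Of these 11 genes Higd1a, Hk1 and Bnip3 have a second probe set, and on it the groups overlapped. That of Bnip3 was at 7.84 and 7.82, against 7.95 and 7.75 with control VMO. With the mean of all probe sets of a gene, 1 member in place of 3 had an unadjusted limma p under 0.05. The median difference was 0.007 over the 30 genes and 0.013 over all genes. In the same comparison 12 of 14 macrophage markers had a positive difference (median 0.17), as did 21 of 21 cell cycle genes (median 0.26), with the proliferation marker Mki67 at 0.58 (adjusted p = 0.204). Of 14 FAP markers 5 were positive (median -0.05), with Dpp4 at -0.45 (adjusted p = 0.204) and Cd34 at -0.25 (adjusted p = 0.284). In these lists 0 genes were called, and their part in the members' differences was not tested. The largest negative differences were those of Higd1a, a mitochondrial inner membrane protein induced by hypoxia, Pdk1 and Kdm3a. Higd1a was at 6.65 and 6.75 in pA-VMO cells, 7.03 and 7.21 in 5'ss-VMO cells and 7.05 and 7.09 in control cells. Its difference from control was -0.37 ± 0.0787 (1.29-fold lower, adjusted p = 0.228), between -0.42 and -0.32 whichever single array was left out. A second probe set of Higd1a, with a lower mean, did not show it: it was at 5.99 and 5.96 in pA-VMO cells, 5.98 and 6.20 in 5'ss-VMO cells and 5.89 and 5.98 in control cells, a difference from control of 0.04. The value of Higd1a therefore depends on the probe set.

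Pdk1 differed from control by -0.21 ± 0.139 with pA-VMO (adjusted p = 0.608) and Kdm3a by -0.18 ± 0.0639 (adjusted p = 0.351). Kdm3a was at 8.18 and 8.16 on the pA-VMO arrays, against 8.38 and 8.32 on the control arrays, groups that did not overlap. Hk1 was at 11.97 and 12.05 with pA-VMO, against 12.18 and 12.19 with control VMO, a difference of -0.18 ± 0.0647 (adjusted p = 0.369), while its second probe set, at 8.44 and 8.46 against 8.46 and 8.33, had 0.06. Pfkfb4 and Pfkfb3 lay at -0.16 and -0.15 (adjusted p = 0.481 and 0.468). The largest positive differences were small: Pgam1, Slc16a3 and Pgk1 each lay at 0.09, with adjusted p values from 0.77 to 0.862. Among the pay-off enzymes the 95% interval of the difference was -0.20 to 0.37 for Pgk1, -0.20 to 0.22 for Pkm and -0.13 to 0.25 for Ldha.

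Set directly against each other, the reagents gave no called member. With pA-VMO against 5'ss-VMO 0 of 30 genes were called (background 0.0602%), 6 of 30 had an unadjusted p under 0.05, all lower with pA-VMO (background 7.11% for that direction), and 26 of 30 had a negative difference, leaving 4 positive (background 51.4%). The groups did not overlap for 9 genes with pA-VMO lower (background 23.7%) and for Ndrg1 with pA-VMO higher (25.5%). Pfkfb3 differed by -0.39 ± 0.0705 (1.31-fold lower with pA-VMO, adjusted p = 0.0687) and Higd1a by -0.42 ± 0.0787 (1.34-fold lower, adjusted p = 0.0698). Both genes were called in 4 alternative settings, with adjusted p values from 0.011 to 0.0433: the stricter filter (2 of 26 members tested, background 1.02%), eBayes with trend (2 of 30, 1.32%), trend and robust (2 of 30, 1.24%) and arrays centred on their medians (2 of 30, 0.742%). With any single array left out neither was called, with adjusted p values up to 0.255 for Pfkfb3 and 0.281 for Higd1a. The second probe set of Higd1a had a difference of -0.12. Adm differed by -0.24 ± 0.0619 (adjusted p = 0.127).

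Markers of other cells went both ways in this comparison, where 51.4% of all genes tested had a positive difference. Of 12 satellite cell and myoblast markers 1 had a positive difference (median -0.16), with Chrna1 at -0.69 (adjusted p = 0.0513) and the fusion gene Mymk at -0.49 (adjusted p = 0.0687). Of 14 macrophage markers 6 were positive (median -0.10), with the complement genes C1qa at -0.36 (adjusted p = 0.0687) and C1qc at -0.33 (adjusted p = 0.0955). The macrophage marker Cd68 went the other way, at 0.16 (limma adjusted p = 0.286). Positive differences were found for 4 of 10 endothelial (median -0.01) and 6 of 13 muscle fibre markers (median -0.02). All 3 neutrophil and all 2 erythroid markers tested were positive (medians 0.11 and 0.37). In these lists 0 genes were called (background 0.0602%). The part of these cells in the differences of Pfkfb3, Higd1a and Adm was not tested.

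Some of the other negative differences depended on 5'ss-VMO replicate 2 and some did not. P4ha1 lay at -0.19 (adjusted p = 0.238) and at -0.16 without that array, Kdm3a at -0.13 (adjusted p = 0.36) and at -0.12, and Hk1 at -0.10 (adjusted p = 0.476) and at -0.11. P4ha2 lay at -0.18 (adjusted p = 0.325) and at -0.07 without it. By contrast, Bnip3 lay at -0.45 ± 0.176 (adjusted p = 0.256) and at -0.11 without the same array, Pdk1 at -0.33 (adjusted p = 0.29) and at -0.07, and Egln3 at -0.37 (adjusted p = 0.564) and at 0.20. The second probe set of Bnip3 lay at -0.22 with all arrays. The median difference of the 30 genes was -0.081 with all arrays, 0.020 when 5'ss-VMO replicate 2 was left out and -0.202 when its partner was, while the median over all genes was 0.004. Without 5'ss-VMO replicate 2, 17 of 30 differences were positive. The largest positive differences were those of Ndrg1 at 0.05, Ldha at 0.03 and Ankrd37 at 0.02 (adjusted p = 0.745 to 0.921). Both comparisons with control share the control arrays, and both comparisons with 5'ss-VMO share its arrays, so their values are not independent of each other.

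The remaining members were not called in any comparison either. Slc2a1, the main glucose uptake transporter of proliferating cells, was at 11.06 and 11.04 in pA-VMO cells, 10.96 and 11.16 in 5'ss-VMO cells and 11.14 and 10.99 in control cells, groups that overlapped. Its difference of 5'ss-VMO from control had a 95% interval of -0.20 to 0.18. Vegfa, the growth factor that calls in blood vessels, was at 10.25 and 10.34 in pA-VMO cells, 10.26 and 10.52 in 5'ss-VMO cells and 10.29 and 10.20 in control cells. Egln1, the main oxygen sensor among the prolyl hydroxylases, was at 8.13 and 8.00 in pA-VMO cells, 8.09 and 8.30 in 5'ss-VMO cells and 8.12 and 7.88 in control cells, so control replicate 2 was its lowest array. The difference of Egln1 between 5'ss-VMO and control was 0.19 ± 0.101 (limma adjusted p = 0.424), with overlapping groups. The aldolase gene Aldoa differed from control by 0.08 in pA-VMO cells (adjusted p = 0.745) and by 0.09 in 5'ss-VMO cells (adjusted p = 0.625). Pfkm, Pfkp, Hk2 and Hif1a had differences between -0.08 and 0.08 in all 3 comparisons. Ankrd37, an ankyrin repeat gene induced by HIF, lay between 6.20 and 6.41 on the 6 arrays, with overlapping groups.

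Of the 30 genes 6 had several probe sets. Bnip3 had the displacement of 5'ss-VMO replicate 2 in both of its probe sets, by 0.69 and 0.34, Pgk1 in all 3, by 0.44 to 0.46, and Pgam1 in all 3, by 0.29 and 0.30. For Pgk1 and for Pgam1 a pair of probe sets had equal values to 2 decimals, so the probe sets of such a pair are not separate measurements. The remaining probe set of each gene had other values. The second probe set of Pkm differed by 0.13 in place of 0.27, that of Hk1 by 0.15 in place of -0.01 and that of Higd1a by 0.22 in place of 0.18. For Hk1 the second probe set was at 8.51 and 8.66 with 5'ss-VMO, against 8.46 and 8.33 with control VMO, a difference of 0.19 in place of -0.07. Probe sets that share a symbol may read processed copies of a gene elsewhere in the genome, and the array does not tell these apart.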

How the data were processed

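Expression was measured with Affymetrix Mouse 1.0 ST arrays, per the series' design text, on biotin-labelled cDNA made from 100 ng of total RNA, per the labels' protocols. The authors deposited log2 values from RMA in Affymetrix Expression Console, per the submitters' processing notes, without version, settings or array batches. Because RMA equalises intensity distributions, total RNA per cell is not measured, and differences of dim probe sets are compressed.

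Of 35556 probe sets, 21789 have 1 gene symbol in the platform annotation. The highest-mean probe set stood for a gene, and a filter at the 25th percentile of gene means (log2 5.209) kept 14953 genes. One limma model (limma 3.58.1, R 4.3.3, eBayes) covered all 6 arrays without a block, with 3 residual and 6.06 prior degrees of freedom, and p-values were adjusted by Benjamini-Hochberg over all genes tested. The fit was tested on simulated data. With 2 arrays a group, the smallest exact permutation p is 0.333. Each array is a biological replicate pooled from 4 mice, per the series' design text. Members and lists were chosen with earlier results of these data known, and the cell cycle list after the values were seen. Named in full were called members, the 3 largest differences each way per comparison, the widest differences between replicate arrays, paralogous enzymes and called genes of the lists. Other list genes named in the text were chosen after their values were seen. Alternatives were the filter, the probe set rule, the variance model, the scaling, the arrays fitted, the replicate block and leaving out each array.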

Additional observations from a re-analysis of the deposited data

How the results depend on the processing

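With 2 arrays per group, precision was limited by their number. In the comparison of pA-VMO with control 0 members were called under every alternative run, and the median difference ran from -0.056 to 0.057 over the arrays left out. For 5'ss-VMO against control 0 members were called in every alternative that kept both 5'ss-VMO arrays. The median ran from -0.045 to 0.187 over the arrays left out. It was lowest without 5'ss-VMO replicate 2 and highest without 5'ss-VMO replicate 1. Over the same fits Egln3 ran from -0.19 to 0.942 and Bnip3 from -0.037 to 0.648. Hk1 lay at 0.06 with the mean of its probe sets. For pA-VMO against 5'ss-VMO, 2 members (Pfkfb3 and Higd1a) were called with genes below the 50th percentile left out, with eBayes with trend, with eBayes with trend and robust, and with each array centred on its median, where the background was 1.02%, 1.32%, 1.24% and 0.742%; the median ran from -0.202 to 0.020 over the arrays left out. In that comparison Ldha ran from -0.083 to 0.143 and Ankrd37 from -0.072 to 0.121 over the arrays left out, and with arrays centred they lay at -0.003 and -0.008; the cause was not tested. With the 99th percentile as the limit of a wide difference, a choice made after seeing the data, 6 in place of 11 members were wide on the 5'ss-VMO arrays. The titles number the arrays of each group 1 and 2 without saying that a number marks a shared batch, and differences between same-numbered arrays correlated at -0.10 to 0.02 over genes. With that number as a replicate block 0 members were called in all 3 comparisons, and over all genes 1, 90 and 23 were called, against 1, 87 and 9. Over all alternatives these counts ran from 0 to 51, from 8 to 266 and from 1 to 197, in the order pA-VMO against control, 5'ss-VMO against control and pA-VMO against 5'ss-VMO.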

Other observations

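Genes outside the members and lists are named here after their values were seen. Among those with the largest differences between the 5'ss-VMO arrays with replicate 2 higher, most had replicate 1 as the lowest array. The carbonic anhydrase gene Car3 was at 7.71 and 7.41 in pA-VMO cells, 5.85 and 6.59 in 5'ss-VMO cells and 6.68 and 7.34 in control cells. S100a4, a calcium-binding protein of motile fibroblasts, was at 9.05 and 9.14 in pA-VMO cells, 8.13 and 8.87 in 5'ss-VMO cells and 9.04 and 8.82 in control cells. For Car3 and S100a4 5'ss-VMO replicate 1 was the lowest of the 6 arrays. For Egln3, Bnip3 and Slc16a3 replicate 2 was the highest, and for Egln3 replicate 1 was also the lowest. Replicate 1 of 5'ss-VMO was likewise the lowest array for the members Pgk1 (9.94), Pkm (9.92), Aldoc (5.39), Ldha (11.10), Slc2a1 (10.96) and Ankrd37 (6.20). For Bnip3 and Slc16a3 it was not. Fabp5, a fatty acid binding protein, had 7.57 and 7.50 on the pA-VMO arrays, 7.17 and 7.77 on the 5'ss-VMO arrays and 7.14 and 7.36 on the control arrays.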
